A study of Mus musculus with 7 samples.

Results

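The interferon regulatory factors are a family of transcription factors that bind DNA through a shared amino-terminal domain. Of its genes, 8 were taken from the table by symbol, Irf1, Irf2, Irf3, Irf4, Irf5, Irf7, Irf8 and Irf9, out of 26558 named genes. Each was found on a single entry, and all 8 were among the 13420 genes with a mean level high enough to be tested. The members were selected on their FPKM in these same mutant and wildtype libraries, with earlier results known, so the values below describe them and are no independent support.

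RNA was sequenced from endothelial cells of the kidney of 3-month-old male C57BL/6 mice, isolated with magnetic beads that carried an antibody against Cd31 and lysed without culture. The 4 mutant libraries came from Hoxb7-Cre-GFP mice with loxP sites in both Vhlh alleles, and the 3 wildtype libraries came from mice with Hoxb7-Cre-GFP alone, so both groups carried the Cre transgene. Hoxb7-Cre is active in the collecting duct lineage of the tubule, not in endothelium, so the isolated cells were not the cells in which the deletion was directed. Nothing in the labels ties a library to its own animal, and the spread that the p-values rest on may be technical. Levels are FPKM, fragments scaled by transcript length and by sequencing depth, as the authors deposited them.

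Type I interferons signal through a receptor and Janus kinases to STAT proteins, STAT2 among them, which bind IRF9 to form the complex that switches on antiviral genes. Type II interferon, interferon gamma, induces IRF1. IRF3 and IRF7 are switched on by phosphorylation after nucleic acid sensors detect a virus, and they induce the interferon genes themselves. IRF4, IRF5 and IRF8 are most abundant in blood-derived cells: IRF8 with its partner PU.1 directs monocyte and dendritic cell development, IRF4 acts in lymphocytes and in some dendritic cells and macrophages, and IRF5 acts downstream of Toll-like receptors in phagocytes. Endothelial cells express the interferon receptors and respond to interferons.

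Sequences before the start sites are shown because several members are both effectors and targets of the pathway. In the RefSeq table of promoters (GRCm38.p6, the mm10 assembly), the 250 bases before the start of transcription were searched on both strands for TTCNNNGAA, the core of the gamma-activated sequence (GAS), and for GAAA, any 2 bases and GAAA again, the core of the interferon-stimulated response element (ISRE). All 8 members had an entry. The first pattern was present for 3 of the 8, Irf1, Irf2 and Irf8, and is present before 7.02% of all 32851 start sites and for 8.13% of all genes. The second was present for 1 of the 8, Irf2, and is present before 2.98% of start sites and for 3.46% of all genes. Irf1, Irf8 and Irf9 each have 2 start sites in the table, and the second windows of Irf1 (from 53770223 to 53770472) and Irf8 (from 120738389 to 120738638) hold 0 matches to either pattern. The windows that do hold a match, on the plus strand in each case, were as follows, with matches in capitals.
Irf1, chr11:53769764-53770013: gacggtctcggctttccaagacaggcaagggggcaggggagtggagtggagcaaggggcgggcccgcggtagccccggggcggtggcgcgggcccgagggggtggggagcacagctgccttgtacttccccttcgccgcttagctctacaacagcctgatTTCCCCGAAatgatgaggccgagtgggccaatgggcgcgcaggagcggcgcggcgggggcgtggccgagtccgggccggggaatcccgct
Irf2, chr8:46739495-46739744: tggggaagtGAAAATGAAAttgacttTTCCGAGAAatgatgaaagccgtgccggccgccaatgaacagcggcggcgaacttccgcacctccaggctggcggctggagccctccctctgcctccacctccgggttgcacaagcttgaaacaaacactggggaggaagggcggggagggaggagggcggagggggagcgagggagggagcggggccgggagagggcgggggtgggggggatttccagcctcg
Irf8, chr8:120736108-120736357: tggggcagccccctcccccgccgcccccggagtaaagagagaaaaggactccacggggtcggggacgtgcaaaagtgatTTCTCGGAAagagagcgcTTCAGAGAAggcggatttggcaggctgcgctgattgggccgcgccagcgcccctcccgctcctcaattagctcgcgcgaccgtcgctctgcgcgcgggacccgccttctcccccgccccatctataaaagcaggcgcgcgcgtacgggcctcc
In Irf1 the match TTCCCCGAA lay 82 to 90 bases before the start. In Irf2 the response element match GAAAATGAAA lay 232 to 241 bases and TTCCGAGAA 216 to 224 bases before it. In Irf8 there were 2 matches to the GAS pattern, TTCTCGGAA at 163 to 171 and TTCAGAGAA at 145 to 153 bases, and no match to the response element in this window. No binding was measured, so these are letters and not sites.

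The libraries were similar in breadth, with 13222 to 13337 genes at an FPKM of at least 1. Vhl was at an FPKM of 6.71 to 8.24 in wildtype and 5.57 to 6.41 in mutant libraries, which is no check of a deletion directed at tubule cells. Pecam1, the gene for Cd31, was at 202 to 385, and markers of other cells were present in all libraries. The 10 macrophage markers summed to 1714 to 2878 in wildtype and 393 to 845 in mutant libraries, and 9 of the 10 were called lower. The macrophage count was 8 without wildtype 2 or wildtype 3. The 5 pan-leukocyte markers, Ptprc (CD45) among them, summed to 472 to 713 and to 177 to 285, and all 5 were called lower. The pan-leukocyte count was 4 without wildtype 2, wildtype 3, mutant 1 or mutant 4. The 10 endothelial markers summed to 2196 to 3312 and to 3346 to 4044, with 4 called higher, a count of 0 without wildtype 2, mutant 1, mutant 2 or mutant 4. Tubule transcripts were abundant. The 8 markers of distal nephron and collecting duct summed to 1510 to 1744 in wildtype and to 1756 to 2744 in mutant libraries, without overlap. Of these, Slc12a3 was called higher (limma adjusted p = 0.00855), and the most abundant, Umod, was at 1055 to 1279 and at 1371 to 2179 and was not called. The list did not differ in 1 direction: at a limma unadjusted p under 0.05, 3 markers were higher and 2 were lower, Aqp2 and Aqp3. Aqp2 was at 52.0 to 95.4 in wildtype and 19.9 to 59.1 in mutants, and Aqp3 at 27.8 to 41.0 and 13.9 to 33.7. The 7 proximal tubule markers summed to 3029 to 5078 and to 1015 to 7711, with 0 called and 1 higher at an unadjusted p under 0.05. No marker of any list was at 0 in all libraries. In such bulk samples fewer cells of a type and less RNA per cell cannot be told apart, and how far this difference in makeup bears on the members was not tested.

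Irf5 and Irf8, the members best known from phagocytes and dendritic cells, fell in the mutant isolates, to 0.25 and 0.50 of their wildtype mean. None of the other 6 members passed the test: Irf1 was the only member with a higher mean in the mutant group, and Irf2, Irf3, Irf4, Irf7 and Irf9 had mutant means of 0.806 to 0.927 times wildtype. Limma with Benjamini-Hochberg adjustment over all 13420 tested genes therefore called 2 of 8 members lower and 0 higher, where it called 16.1% of all tested genes, 7.34% lower and 8.76% higher. At an unadjusted p under 0.05 there were 4 lower members and 1 higher, against 13.0% and 19.4% of all tested genes. The mutant and wildtype values did not overlap for 3 members, all lower in mutants, Irf2, Irf5 and Irf8. Of all tested genes 31.4% were without overlap, 12.5% lower and 18.9% higher. The median log2 difference of the 8 members was -0.27, against 0.04 over all tested genes.

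**Figure D1:**
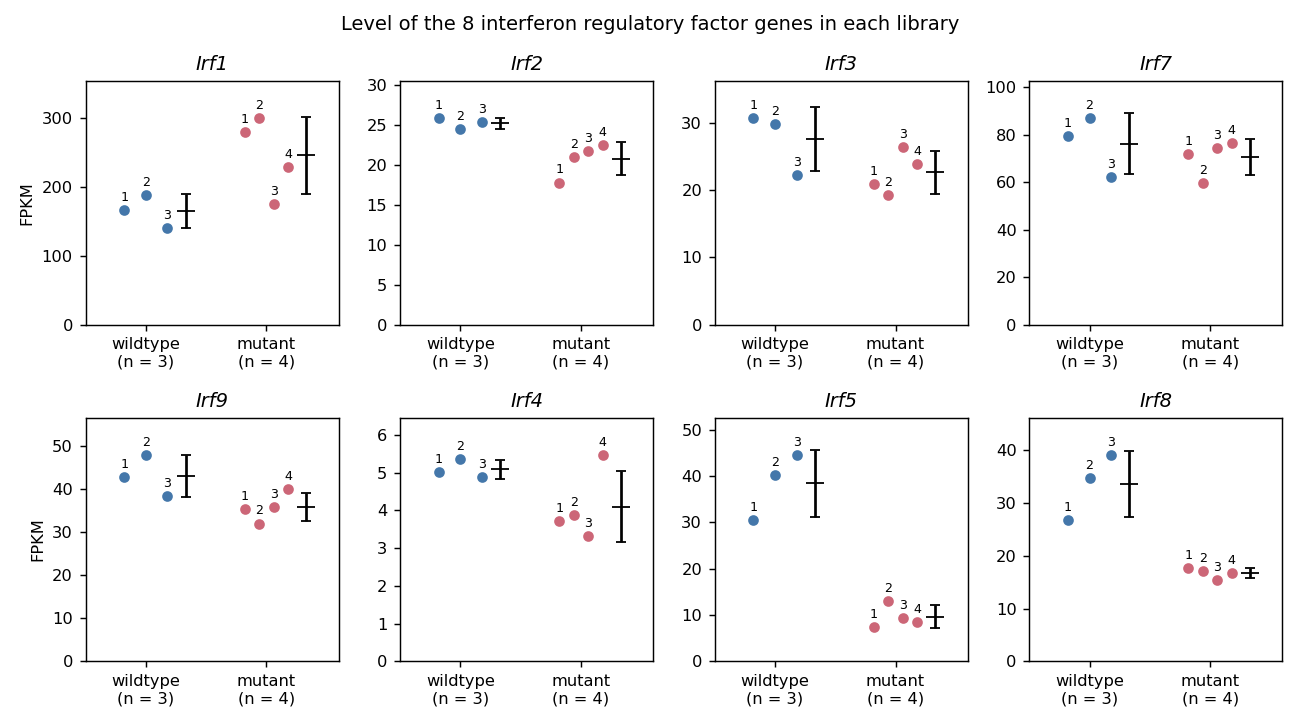
Each panel gives the level (FPKM, linear axis from 0) of a gene in the 3 wildtype and 4 mutant libraries, with library numbers above the points and the mean and SD as a bar at the right of each group. Irf5 and Irf8 sit apart in the 2 groups, Irf2 sits just apart, and the points of the other 5 genes overlap, with Irf1 ranging from 139.9 to 188 in wildtype and from 175 to 299 in mutant libraries.

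In level, the family was dominated by Irf1 in every library. The order by mean in wildtype was Irf1, Irf7, Irf9, Irf5, Irf8, Irf3, Irf2 and Irf4. Irf1 stood above Irf7, Irf7 above Irf9, and Irf2 above Irf4 without overlap, while the neighbours from Irf9 down to Irf2 overlapped in range. In mutants the order was Irf1, Irf7, Irf9, Irf3, Irf2, Irf8, Irf5 and Irf4, and the only overlapping neighbours were Irf3 and Irf2. Irf5 thus held rank 4 in wildtype and rank 7 in mutants, and Irf8 ranks 5 and 6.

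The interferon-induced activator Irf1 (chromosome 11 from 53770014 to 53778374) and its relative Irf2, which binds the same sites and can oppose it (chromosome 8 from 46739732 to 46847458), had means that differed in opposite directions, neither past the test. Irf1 was at an FPKM of 166, 188 and 139.9 in wildtype 1 to 3 and at 278, 299, 175 and 228 in mutant 1 to 4. Mutant 1, 2 and 4 lay above every wildtype library, and mutant 3 lay inside the wildtype range. The means were 165 ± 24.05 (SD, n = 3) and 245 ± 55.6 (SD, n = 4), a log2 difference of 0.55 with a standard error of 0.20 that was not called (limma adjusted p = 0.0955). Without mutant 3 the difference was 0.70 and Irf1 was called higher (limma adjusted p = 0.0231). After scaling the libraries on the endothelial markers, a setting chosen after seeing the data, the difference was 0.17 (limma adjusted p = 0.546), where the median over all genes moved to -0.30. The ratio of Irf1 to Pecam1 was 0.673 ± 0.0842 in wildtype and 0.691 ± 0.141 in mutants, with overlap, as for Irf1 itself. Pecam1 had a mutant mean of 1.435 times wildtype. The 10 endothelial markers ranged from 1.02 (Kdr) to 1.47 (Cdh5) times wildtype, and Irf1 was at 1.49, so the ratio depends on the marker taken.

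Irf2 was at 25.9, 24.5 and 25.4 in wildtype and at 17.8, 21.0, 21.8 and 22.6 in mutants. It was the steadiest member in wildtype, and every mutant library lay below every wildtype library, by a small margin. The log2 difference of -0.27 (standard error 0.0913) missed the threshold in limma with an adjusted p of 0.0827, although it passed under median-of-ratios scaling (limma adjusted p = 0.0321), quantile normalization (0.0411) and array weights (0.0284). As a result of both differences the ratio of Irf1 to Irf2 was 5.51 to 7.66 in wildtype and 7.99 to 15.6 in mutants, with no overlap.

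Irf3 and Irf7, the factors that switch on interferon genes, lie on the same chromosome, Irf3 on chromosome 7 from 44997648 to 45002848 and Irf7 from 141262706 to 141266481. Irf3, which most cells make at a constant level, was at 30.7, 29.9 and 22.2 in wildtype and at 20.8, 19.3, 26.4 and 23.8 in mutants. Wildtype 3 lay among the mutants, and the log2 difference of -0.27 was not called (limma adjusted p = 0.241). Irf7, whose gene is itself induced by interferon, was at 79.5, 86.9 and 62.0 in wildtype and at 71.9, 59.7, 74.2 and 76.6 in mutants. The groups overlapped almost fully and the log2 difference was -0.10, with a 95% interval from -0.42 to 0.22 (limma adjusted p = 0.66). Its sign rested on wildtype 2: without that library the difference was 0.000523.

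Irf9 (chromosome 14 from 55603571 to 55610030), the DNA-binding part of the complex with STAT2, was at 42.7, 47.9 and 38.4 in wildtype and at 35.5, 32.0, 35.7 and 40.1 in mutants. Only mutant 4 reached into the wildtype range, and the log2 difference of -0.26 was not called (limma adjusted p = 0.137). Part of this gene shares 123 bases with Rnf31 on the same strand, which was itself at 22.6 and 17.2 on average and not called. Irf3, Irf5 and Irf7 overlap Bcl2l12, Tnpo3 and Phrf1 on the opposite strand by 1065, 1045 and 45 bases, and none of these 3 was called. Irf8 lies wholly, over 20337 bases, within the gene model Gm20388 on the same strand, which was not analysed here. Irf1 overlaps 1 and Irf2 overlaps 3 gene models on the opposite strand, by 907 bases and by 433 to 1723 bases, which were also not analysed here. Whether the counting used strand is not given in the sources used here.

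Irf5 (chromosome 6 from 29526625 to 29541871) had the largest difference of the 8. It was at an FPKM of 30.5, 40.1 and 44.6 in wildtype and at 7.35, 13.1, 9.46 and 8.52 in mutants. Even the highest mutant library, mutant 2, lay far below the lowest wildtype library. The means were 38.4 ± 7.17 (SD, n = 3) and 9.61 ± 2.48 (SD, n = 4), a 3.997-fold difference, and the log2 difference of -1.90 had a standard error of 0.195 (limma adjusted p = 0.0014). It was called in each of the 18 alternatives, with log2 differences from -2.27 to -1.79. Mutant 2, the highest mutant library for Irf5, was also the highest for the macrophage markers, at a summed FPKM of 845 against 393 to 457 in the other mutants.

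Irf8 (chromosome 8 from 120736358 to 120756694) was at 26.9, 34.8 and 39.1 in wildtype and at 17.7, 17.1, 15.5 and 16.8 in mutants. The mutant libraries were close together, and mutant 2 did not stand out among them as it did for Irf5. The means were 33.6 ± 6.21 (SD, n = 3) and 16.8 ± 0.934 (SD, n = 4), a 2.001-fold difference, and the log2 difference of -0.94 had a standard error of 0.125 (limma adjusted p = 0.00326). Without any 1 library it stayed called, with log2 differences from -1.09 to -0.83 and a largest limma adjusted p of 0.0227.

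Irf4 (chromosome 13 from 30749226 to 30766976), the closest relative of Irf8, was the least abundant member. It was at 5.02, 5.36 and 4.88 in wildtype and at 3.72, 3.87, 3.33 and 5.47 in mutants. Mutant 4 was above all wildtype libraries and the other 3 mutants were below them all. The log2 difference of -0.27 was not called (limma adjusted p = 0.211), and without mutant 4 it was -0.39 and called lower (limma adjusted p = 0.0302).

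**Figure D2:**
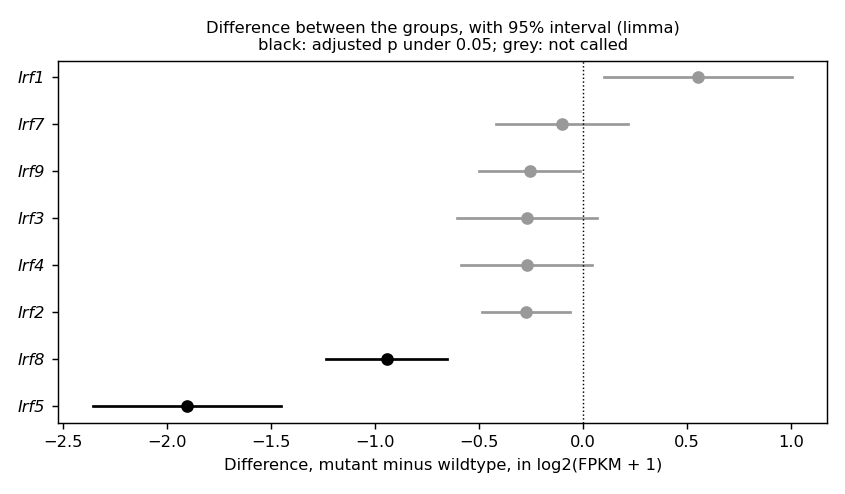
The points give the difference between the group means in log2(FPKM + 1), mutant minus wildtype, for the 8 genes, and the lines its 95% interval from limma over 3 wildtype and 4 mutant libraries. Irf5 (-1.90) and Irf8 (-0.94), in black, passed the test over all genes, and the 6 genes in grey, from Irf2 at -0.27 to Irf1 at 0.55, did not.

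The sum over the 8 genes was alike in the groups while its makeup was not. The family sum was an FPKM of 407, 457 and 376 in wildtype and 453, 465, 361 and 422 in mutants, with overlapping ranges. Irf1 made up 37.2 to 41.1% of it in wildtype and 48.4 to 64.3% in mutants. Irf5 made up 7.496 to 11.8% and 1.62 to 2.82%, and Irf8 6.60 to 10.4% and 3.68 to 4.30%. Without Irf1 the other 7 summed to 237 to 269 in wildtype and 166 to 194 in mutants, with no overlap.

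**Figure D3:**
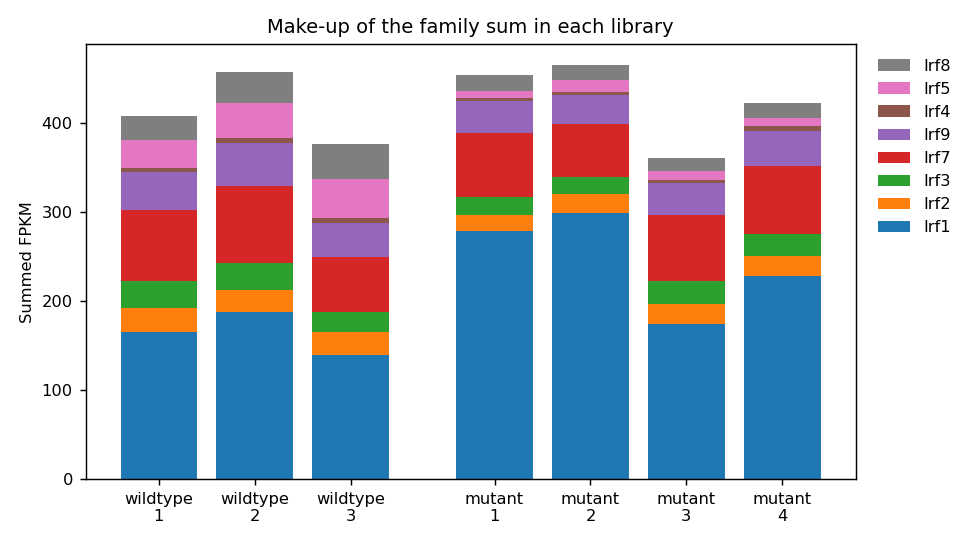
Each bar is a library and its height the summed FPKM of the 8 genes, with a colour for each gene. The bars reach 361 to 465 in both groups together, and the lowest segment, Irf1, takes 37.2 to 41.1% of the bar in wildtype and 48.4 to 64.3% in mutants.

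The ratio between Irf8 and Irf5 did not overlap between the groups. Within wildtype libraries it was nearly constant, at 0.881, 0.866 and 0.879, although both genes varied in level. In mutants it was 2.41, 1.31, 1.64 and 1.97, above all wildtype values. Irf5 kept close to Sfpi1, the table's symbol for Spi1 (PU.1), a myeloid and B cell transcription factor: the ratio of Irf5 to Sfpi1 was 0.885 to 1.00 in wildtype and 0.715 to 0.937 in mutants, with overlap. The ratio of Irf8 to Sfpi1 was 0.777 to 0.882 in wildtype and 0.934 to 2.26 in mutants, without overlap. Against Ptprc, which all leukocytes carry, Irf8 was at 0.378 to 0.462 and 0.443 to 0.623, with overlap. Irf5 against Ptprc was at 0.429 to 0.534 and 0.257 to 0.350, without overlap. Which gene's ratio overlapped thus depended on the denominator. Irf5 and Irf8 were in the choice of members, Sfpi1 and Ptprc came from the other lists, and the ratios were not tested.

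**Figure D4:**
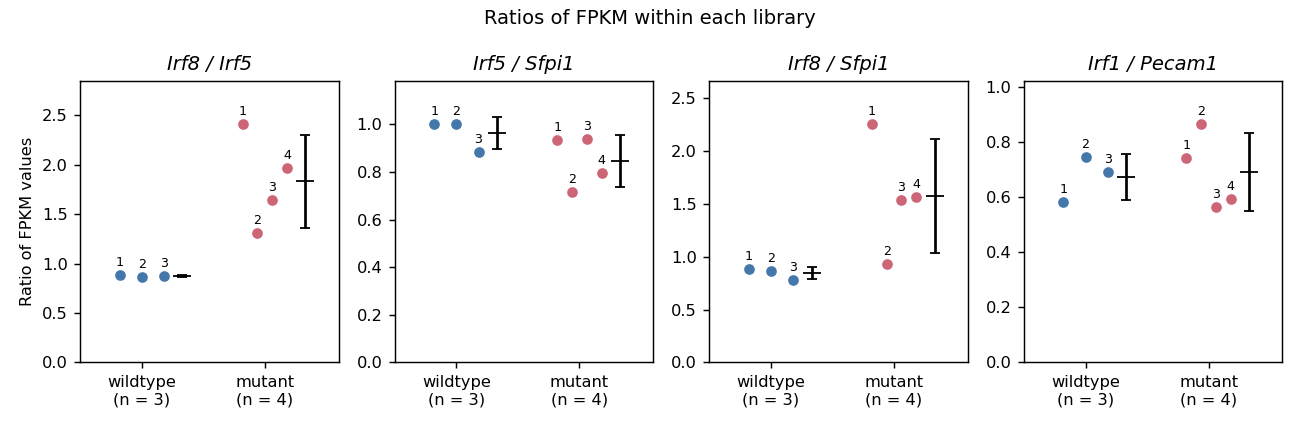
The panels give the ratio of the FPKM values of the named genes within each library, on linear axes from 0, with library numbers above the points and the mean and SD at the right of each group. The ratio of Irf8 to Irf5 is 0.866 to 0.881 in wildtype and 1.31 to 2.41 in mutants, whereas the ratios of Irf5 to Sfpi1 and of Irf1 to Pecam1 overlap between the groups.

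Genes listed as markers of the cell types in which Irf8 and Irf4 are best known did not all differ in the same direction. Of 7 tested conventional dendritic cell markers 4 were called lower, among them Clec9a, a receptor of the dendritic cells that depend on Irf8, and Itgax. The other 3, Zbtb46, Flt3 and Cd209a, were not called, with log2 differences of 0.14, 0.04 and -0.54. Zbtb46 was at 15.7 to 23.9 in wildtype and 17.6 to 25.9 in mutants, and Flt3 at 1.23 to 1.52 and 1.24 to 1.62. Whether dendritic cells were the source of Zbtb46 in these endothelial isolates was not tested. The list summed to 78.1 to 87.6 in wildtype and 47.3 to 56.0 in mutants. Its lower count was 3 without any 1 library other than mutant 1, as the Dpp4 call was lost (largest limma adjusted p = 0.165). Of 6 plasmacytoid dendritic cell markers 2 were called higher, Siglech, at 2.69 to 3.41 in wildtype and 6.91 to 13.2 in mutants, and Ccr9, at 0.624 to 0.695 and 1.33 to 2.62. The Ccr9 call was lost without any 1 wildtype library (largest limma adjusted p = 0.0788). The other 4 were not called, and some were far more abundant. Klk1 was at 533 to 713 in wildtype and 330 to 904 in mutants. Bst2, also listed as a target of IRF9 and IRF7, was at 149 to 224 and 103 to 257. Whether plasmacytoid dendritic cells were the source of Klk1 or Bst2 here was not tested. Of 6 B cell markers 2 were called lower, a count of 0 without any library other than mutant 3 or 4, and the list summed to 60.4 to 78.1 and 31.8 to 57.9. Of 5 tested T and NK cell markers 1 was called lower, Cd4. The other 4, Cd3e, Cd3d, Cd3g and Nkg7, were not called, with log2 differences from -0.000354 (Cd3e) to 0.32 (Cd3g). Of 7 monocyte and neutrophil markers 2 were called lower, 0 of them without wildtype 1, wildtype 3, mutant 1 or mutant 4, and 1, Plac8, higher. The part of these cells in the levels of Irf4, Irf5, Irf7 and Irf8 was not tested.

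The genes whose levels followed each member most closely over the 7 libraries were sought among 8456 other named genes whose mean FPKM reached 5 (8457 for Irf4). The libraries fall into 2 groups, so that Pearson's r here reflects the difference between the groups as well as the spread within them. For Irf1 the closest were Erf, a transcriptional repressor, Cebpd, a transcription factor of the acute phase, and Socs3, a feedback inhibitor of gp130 cytokine signalling (r = 0.993, 0.992 and 0.989). Socs3 was at 109.6 ± 23.6 in wildtype and 264 ± 96.3 in mutants. For Irf5 they were Arap1, Cyth4 and Arhgap9, regulators of small GTPases (r = 0.999, 0.999 and 0.998). For Irf8 they were Ifngr1, the ligand-binding chain of the interferon gamma receptor, Wdr41 and the semaphorin Sema4a (r = 0.990, 0.988 and 0.987). For Irf9 they were Tmem143, Slc22a17 and Psme1, an interferon-inducible proteasome activator (r = 0.967, 0.966 and 0.959). For Irf2, Irf4 and Irf7 the closest genes were Prpsap2, Dhrs4 and Ambra1 (r = 0.985, 0.966 and 0.966). Each value is a description over 7 libraries.

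Around the family, genes that act before and after it were more often called lower than higher. In 11 lists of 132 pathway genes, 120 were tested, of which 39 were called lower, 32.5%, and 2 higher, 1.67%, against 7.34% and 8.76% of all tested genes. These lists include phagocyte genes and were chosen with earlier results of these data known, so the shares are a description of the genes listed. The lower count was 27 without wildtype 2 and 29 without wildtype 3, and the higher count was 0 without any 1 wildtype library, 8 without mutant 3 and 1 without mutant 1, 2 or 4.

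**Figure D5:**
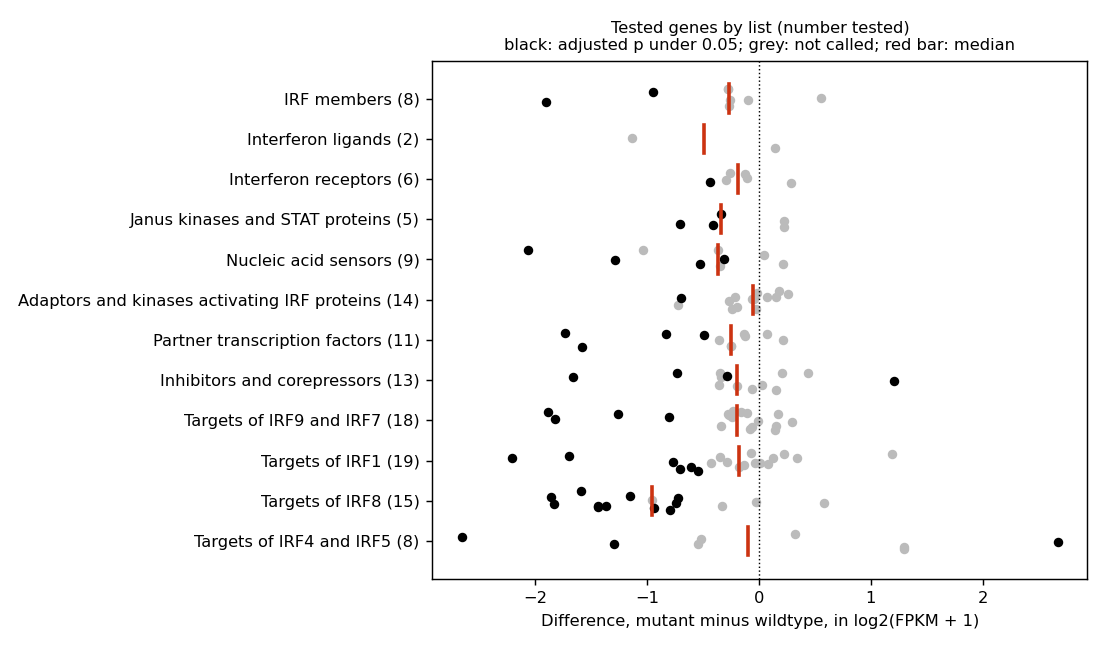
Each point is a tested gene, placed by its difference in log2(FPKM + 1), mutant minus wildtype, with the lists on the vertical axis, black points for genes with a limma adjusted p under 0.05, grey for the others and a red bar at the list's median. The genes listed as IRF8 targets have the lowest median, -0.96, and the adaptors and kinases the median nearest to 0, -0.05.

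Most of the interferon genes were at or near 0, and Ifnb1 was the exception. Of 11 listed ligands, Ifnb1 and Ifng reached the level for testing and neither was called. Ifnb1, the gene that IRF3 induces, was at 8.05, 11.9 and 12.5 in wildtype and at 4.74, 4.002, 1.14 and 11.9 in mutants, where mutant 4 reached the wildtype level and the other 3 lay below it (limma adjusted p = 0.177). Without mutant 4 it was called lower (limma adjusted p = 0.0435). Ifna4, Ifne, Il28a and Il28b were listed at 0 in all libraries, and the other 5 were at an FPKM of at most 0.166 in any library. Of 6 receptor chains Ifngr1 alone was called, at 75.5 ± 8.09 in wildtype and 55.5 ± 2.84 in mutants, and lower in 4 of 4 mutants than in any wildtype library. Its log2 difference was -0.43 (limma adjusted p = 0.0196), lost without wildtype 2 or wildtype 3 (largest 0.0845).

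Stat2, the partner of IRF9, was at 35.7, 37.5 and 35.0 in wildtype and at 28.6, 25.3, 30.0 and 29.5 in mutants. It fell without overlap, with a log2 difference of -0.34 (limma adjusted p = 0.0275), and so did the kinase Tyk2 (-0.41, limma adjusted p = 0.0201), while Jak1 and Jak2 were not called (0.0922 and 0.174). The Stat2 call was lost without any 1 wildtype library, mutant 1 or mutant 2, and the Tyk2 call without wildtype 1 or wildtype 2 (largest limma adjusted p = 0.121 and 0.096). Of 18 genes listed as targets of IRF9 and IRF7, 4 fell, Mx1, Oas1a, Oas2 and Oas3, and these 4 numbered the same without any 1 library. Oas2 was at 23.2 to 29.7 in wildtype and at 5.24 to 7.41 in mutants (log2 difference -1.89, limma adjusted p = 0.0006). The other 14 were not called, among them Isg15 at 63.5, 73.0 and 55.2 against 63.8, 57.3, 61.6 and 69.6, and Rsad2, so that the list's median was -0.20.

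Of 9 nucleic acid sensors 4 fell. Tlr9, an endosomal DNA receptor, was at 9.83, 13.5 and 12.1 in wildtype and at 1.64, 3.06, 1.76 and 1.90 in mutants (log2 difference -2.06, limma adjusted p = 0.00087). Tlr7, the receptor for single-stranded RNA, fell by 1.29 on the log2 scale, and the cytoplasmic sensor Ifih1 and its relative Dhx58 by 0.31 and 0.53. The Tlr9 call stood without any 1 library. The Dhx58 call was lost without wildtype 2, the Tlr7 call without wildtype 2 or 3, and the Ifih1 call without any 1 wildtype library or mutant 2 (largest limma adjusted p = 0.0588, 0.0641 and 0.0936). The lower count was 1 without wildtype 2 and 2 without wildtype 3. The cytoplasmic sensor Ddx58 (RIG-I) and Tlr3 were not called. Of 14 adaptors and kinases between the sensors and the IRF proteins, only Slc15a4, a lysosomal transporter needed for IRF5 activation, was called lower, from 12.2 to 7.16 on average (log2 difference -0.70, limma adjusted p = 0.00377). Tbk1, the kinase of IRF3, was at 18.7 to 20.7 and 20.0 to 22.2 (limma adjusted p = 0.515).

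Partner transcription factors of IRF4 and IRF8 differed in part. Of 11 tested 4 fell. Sfpi1 was at 30.5, 40.1 and 50.4 in wildtype and 7.86, 18.3, 10.1 and 10.7 in mutants (log2 difference -1.73, limma adjusted p = 0.00595). Batf3, a factor of the dendritic cells that need Irf8, was at 8.39, 9.91 and 9.43 and at 3.49, 2.88, 1.78 and 1.85 (log2 difference -1.58, limma adjusted p = 0.00186). Ikzf1 fell by 0.83 and Batf2 by 0.49, the latter called in all libraries together but not without any library other than mutant 4 (largest limma adjusted p = 0.143). Spib, Batf and Ikzf3 were not called.

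Among 13 inhibitors and corepressors 3 fell and 1 rose. Irf2bp2, a corepressor first found through its binding to IRF2, was at 25.7, 28.8 and 29.3 in wildtype and at 14.0, 17.1, 17.0 and 17.8 in mutants (log2 difference -0.73, limma adjusted p = 0.00356). Its relative Irf2bp1 was not called (limma adjusted p = 0.733). Ptpn6, a phosphatase of blood cells, fell by 1.66, and Pias1, a SUMO ligase, by 0.28, which was lost without any 1 wildtype library, mutant 1 or mutant 2 (largest limma adjusted p = 0.116). Socs3 rose by 1.204 on the log2 scale in limma, with an adjusted p of 0.037 that went above the threshold on removal of each library except mutant 3 (largest 0.117).

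Of 19 genes listed as IRF1 targets 6 fell and none rose in limma, with a median of -0.18. At an unadjusted p under 0.05, 9 were lower and 1 was higher, against 13.0% and 19.4% of all tested genes. Ciita, the activator of MHC class II genes, was at 19.8 to 31.6 in wildtype and at 4.04 to 5.39 in mutants (log2 difference -2.21, limma adjusted p = 0.0006). Nlrc5, which does this for class I, fell by 0.71, Cxcl9 by 1.69 and Casp1 by 0.77, and these 4 calls stood without any 1 library. Tap1 and Psmb9, of antigen processing, fell by 0.55 and 0.61, and lost their calls without any 1 wildtype library or mutant 1, and Psmb9 also without mutant 2 (largest limma adjusted p = 0.0985 and 0.162). Guanylate-binding proteins Gbp2 to Gbp5 were not called, and Vcam1 had a difference of 1.19 that was called only without mutant 3 (limma adjusted p = 0.0587 with all libraries and 0.0064 without).

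Of 15 tested genes listed as IRF8 targets 11 fell and none rose in limma, and the median was -0.96. At an unadjusted p under 0.05, 12 were lower and 1 was higher. Most of these genes are also made by macrophages or dendritic cells, and Clec9a is in the dendritic cell marker list too. Cst3, the cystatin C gene, was at 1083, 1316.5 and 1205 in wildtype and 401, 477, 474 and 513 in mutants (log2 difference -1.36, limma adjusted p = 0.000907). Cybb, a subunit of the phagocyte oxidase, fell by 1.83, Cd180 by 1.44 and Clec9a by 0.94. The lower count was 11 or 12 without any 1 library. Of 8 tested targets of IRF4 and IRF5, the lectin Mgl2 (log2 difference -2.65, limma adjusted p = 0.00136) and Tnf (-1.30, 0.0487) fell and Il6 rose (2.67, 0.0184). The Tnf call was lost without any 1 wildtype library, mutant 1 or mutant 4 (largest limma adjusted p = 0.161), and the Il6 call without any 1 wildtype library (0.0672).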

How the data were processed

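RNA was read from 7 libraries, 4 mutant and 3 wildtype, grouped by the sample titles. Stranded libraries of oligo(dT)-selected mRNA were read from both ends, per the labels' protocols. Tools listed in the submitters' processing notes are RSEM 1.2.28, Trimmomatic 0.39 and Bowtie2 2.3.4.1, the build is mm10, and their roles are not described. The authors deposited FPKM values, per the file headers. The authors' annotation, use of strand and scaling between libraries: not given in the sources used here.

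Of 27014 entries, 429 without a gene name were left out and 27 symbols on 2 entries were summed. FPKM holds no read totals: steps among values under 0.3 gave depths of 0.708 to 1.0 relative to wildtype 1, with 34.3 to 37.9% of entries on such steps (up to 4 reads, tolerance 0.01 in log2), too few to recover counts, so the absolute depth is unknown. Testing used log2(FPKM + 1) of genes whose mean FPKM reached 1, by limma 3.58.1 under R 4.3.3 (intensity trend, two-sided, Benjamini-Hochberg over 13420 genes, adjusted p under 0.05 a call), a scale that understates differences of low genes. The script was checked on simulated data.

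The members and lists were chosen with earlier results of these data known. Named were the members, Vhl, the 4 genes of each list with the smallest p, the 3 genes most like each member, and markers. Other genes of the lists are given where a list is described, and these were chosen after their values were seen. Alternatives were pseudocounts of 0.1 and 0.5, no filter, a mean FPKM of at least 5, 4 scalings (1, on endothelial markers, added after seeing the data), array weights, no trend, a block for the replicate number, and the removal of each library. Positions are from GENCODE M21 (mm10), counted from 1. Some genes that the rule for named genes covers are not reported here.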

Additional observations from a re-analysis of the deposited data

Results flagged for a closer look

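In 3 of the 62 groups of 4 mutant libraries examined, 1 library lay far from the other 3, about the number that chance gives at 1 in 20. The macrophage markers summed to an FPKM of 845 in mutant 2 and to 393 to 457 in the other mutants, and Irf5 was also highest there, at 13.1. Ifng was at 3.98 in mutant 4 and at 0.622 to 1.14 in the others, and Irf1 in mutant 4, at 228, lay within the range of the other mutants. Jak1 was at 43.0 in mutant 3 and at 48.9 to 49.7 in the others, and mutant 3 was also the lowest mutant library for Irf1, at 175.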

How the results depend on the processing

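Irf5 kept its direction and its call in all 18 alternatives, and Irf8 in all but the replicate block (log2 difference -0.95, limma adjusted p = 0.0558). The titles do not say whether the numbers pair the libraries. Deviations of same-numbered libraries correlated at -0.06, 0.03 and -0.28, and those of other pairs at -0.15 to 0.24, too few values to decide it. Mutant 4 has no wildtype library of its number, and the block gave Irf5 the same difference, -1.86, as leaving mutant 4 out. With the replicate block 1 member and 24 pathway genes were called lower, 1 pathway gene higher, and 261 genes higher and 423 lower over all, against 2, 39, 2, 1176 and 985. Array weights called 1 member higher (Irf1) and 6 lower, 6 pathway genes higher, and 2258 genes higher and 1812 lower. Scaling on the endothelial markers moved the median difference of all genes to -0.30 and called 7 members (Irf2, Irf3, Irf4, Irf7 and Irf9 at -0.65 to -0.48) and 66 pathway genes lower, 1 pathway gene higher, and 154 genes higher and 2556 lower. Rescaling to the same total called 576 genes higher, and the higher share of all calls, 54.4%, was 41.7% there and 41.6% with median-of-ratios scaling. Pathway genes called higher numbered 1 with no filter, median-of-ratios scaling or quantile normalization. The cause of these moves was not tested.

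Leaving out each library gave 0 to 1 members called higher and 2 to 3 lower, 0 to 8 pathway genes higher and 27 to 40 lower, and 324 to 1205 genes higher and 521 to 1085 lower over all. Irf7 had log2 differences from -0.24 to 0.000523. Irf4 is below the stricter filter and gave no value there. The absolute depth is unknown, so no counting limit is given for low genes such as Irf4.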
